A study of Mus musculus with 24 samples.

Results

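The 4 thrombospondin genes Thbs1, Thbs2, Thbs3 and Thbs4 were examined in the anterior cingulate cortex (ACC), a frontal cortical area, of mice labelled wild type (WT) or Thbs1/2 knockout (KO). They were taken by symbol, and all 4 were found among the 15232 genes of the expression table. Bulk poly(A) RNA was sequenced from 24 animals, 1 library per animal, in 3 arms of 8, each with 4 females and 4 males. The arms were untrained animals labelled WT, untrained animals labelled KO for Thbs1 and Thbs2 together, and trained animals with the same KO label. Training meant sessions in an operant chamber, for which the animals were deprived of food, so training and food deprivation cannot be told apart. No trained animals labelled WT were among the 24, so training effects cannot be compared between the genotype labels. The age and strain of the mice, and how the KO alleles were made, are not given in the sources used here.

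Thrombospondins are large secreted glycoproteins of the extracellular matrix that bind calcium. Thrombospondin 1 and thrombospondin 2 assemble as trimers, carry thrombospondin type 1 repeats and are known as astrocyte proteins that promote the formation of excitatory synapses. Thrombospondin 3 and thrombospondin 4 form, with cartilage oligomeric matrix protein, a pentameric subgroup without those repeats.

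In the GRCm38 build (GENCODE M21 annotation), Thbs1 lies at chr2:118111876-118127133 on the plus strand and Thbs2 at chr17:14665500-14694235 on the minus strand, and their longest coding transcripts have 22 exons each. Thbs3 lies at chr3:89215180-89226837 on the plus strand with 23 exons in its longest coding transcript, and Thbs4 at chr13:92751590-92794818 on the minus strand with 22. The coding sequences of Thbs1 and Thbs2 were identical at 67% of aligned bases and those of Thbs3 and Thbs4 at 66.8%, against 60.5% to 60.8% for the pairs across these subgroups. The longest run of bases that 2 members share exactly is shown for each subgroup, because reads placed in such a run alone would not tell the members apart. Capitals mark the shared run, and lower case marks 20 bases on either side, in the direction of transcription.
Thbs1 exon 15: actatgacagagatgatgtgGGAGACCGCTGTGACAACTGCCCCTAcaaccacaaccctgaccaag
Thbs2 exon 15: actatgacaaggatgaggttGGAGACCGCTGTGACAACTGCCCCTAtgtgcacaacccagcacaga
Thbs3 exons 18 to 19: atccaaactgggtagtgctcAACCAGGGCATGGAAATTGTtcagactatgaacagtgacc
Thbs4 exons 17 to 18: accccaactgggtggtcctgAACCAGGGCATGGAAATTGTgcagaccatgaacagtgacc
The run shared by Thbs1 and Thbs2 is 26 bases long, at chr2:118120893-118120918 and chr17:14676284-14676309. The run shared by Thbs3 and Thbs4 is 20 bases long and crosses an exon junction in both genes, at chr3:89224459-89224590 and chr13:92755404-92756413. All 4 runs lie in coding exons, and the longest runs of the other 4 pairs of members were 15 to 21 bases. The whole of Thbs3 also lies within Mtx1, a gene on the opposite strand, but they share only 318 of the 4823 exonic bases of Thbs3. Mtx1 was at 13.1, 13 and 12 FPKM on average in the arms labelled WT, untrained KO and trained KO. FPKM counts fragments relative to gene length and library size, so levels of different genes can be set side by side.

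The libraries held 12314984 to 27156301 reads, as recovered from the FPKM values, and 21 to 841 of these fell in any 1 member. Counting error was smaller than the spread between animals for every member in every arm. For Thbs1 in the arm labelled WT it gave a coefficient of variation (CV) of 15.1%, against 28.7% observed, and for Thbs4 it gave 6.35% to 8.64% against 25.5% to 41.0%. The untrained male library 3 labelled KO stood apart. It was the deepest, its summed septal neuron markers were at 140 FPKM against 23.6 to 27.8 FPKM in the other 7 of its arm, and its summed excitatory neuron markers were at 967 FPKM against 1812 to 2123 FPKM. In the other 23 libraries the excitatory neuron markers summed to 1648 to 2246 FPKM. Within its arm that library held the highest Thbs1 value and the lowest Thbs4 value. Animal number also moved with training. All 8 trained animals had numbers of 1000 or more, against 2 males of the untrained arm labelled KO and 1 male of the arm labelled WT. Wherever animal number is a covariate below, it is this split at 1000.

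Thbs1 and Thbs2, the genes named in the KO label, were both higher in the libraries labelled KO than in those labelled WT, which goes against the label. Thbs1 had a lowest, median and highest level of 0.254, 0.518 and 0.716 FPKM in the libraries labelled WT. With the KO label it was at 2.77, 3.51 and 5.04 FPKM in untrained and at 3.62, 4.45 and 5.91 FPKM in trained libraries. Every library labelled KO thus lay above every library labelled WT. Thbs2 ran at 1.52, 2.10 and 2.31 FPKM in the libraries labelled WT, and with the KO label at 2.82, 3.60 and 3.95 FPKM in untrained and 2.95, 3.33 and 3.63 FPKM in trained libraries, again with no overlap by label. A value per gene does not say where in the gene its reads lie, so it does not check whether a part of the gene was deleted. All directions that follow rest on the labels.

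**Figure D1:**
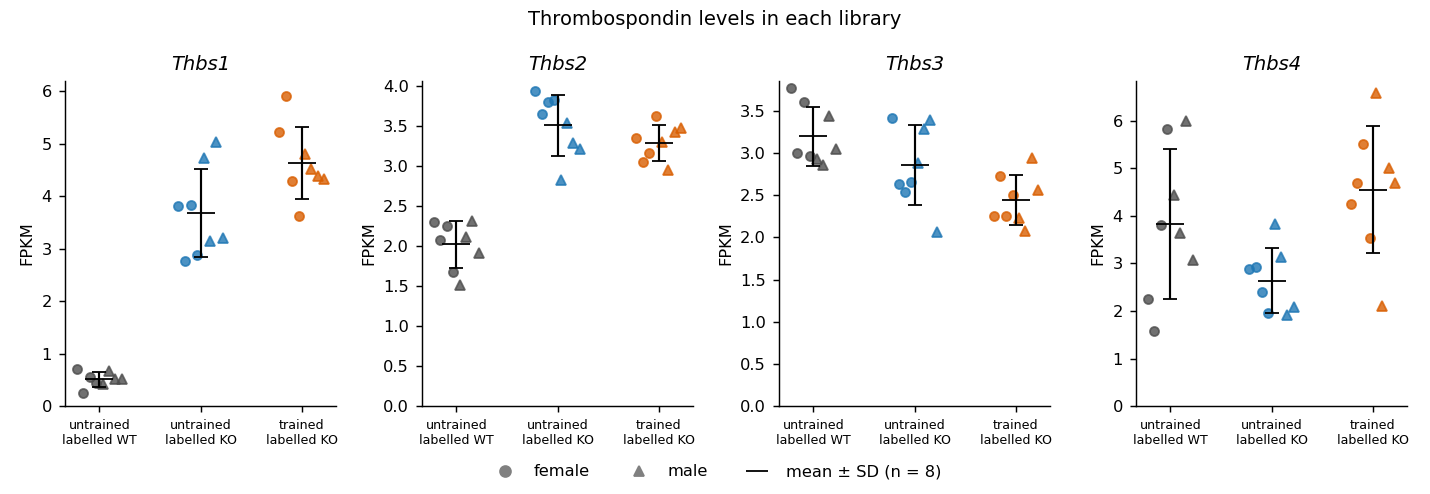
Level of each thrombospondin (FPKM, from 0) in each library by arm, with circles for females, triangles for males and bars for the mean ± SD of 8 libraries. Thbs1 and Thbs2 separate the libraries labelled WT from those labelled KO, while the arms overlap for Thbs3 and Thbs4.

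The first comparison asked how the family differed between untrained animals by genotype label, and whether Thbs3 and Thbs4, which the label does not name, were higher where Thbs1 and Thbs2 carry the KO label. Thbs1 was on average 7.17 times and Thbs2 1.74 times as high in the libraries labelled KO. On the log2(FPKM + 1) scale, Thbs1 rose by 1.61 (SE 0.0961, 95% confidence interval 1.41 to 1.82, limma adjusted p = 1.62e-08). Thbs2 rose by 0.58 (SE 0.0640, 95% confidence interval 0.44 to 0.71, limma adjusted p = 3.80e-05). Over all 12572 genes tested, 1.42% passed in this comparison and 0.605% passed as higher in the libraries labelled KO. Thbs1 and Thbs2 were also among the 0.223% of tested genes whose libraries labelled KO all lay above those labelled WT. Because adding 1 shrinks the change of a low gene, the Thbs1 difference was 2.87 in limma-voom on the recovered reads, against 0.81 for Thbs2. Among the animals numbered under 1000, 6 labelled KO and 7 labelled WT, the differences were 1.58 for Thbs1 and 0.58 for Thbs2 (exact permutation tests, 2-sided, p = 0.000583 each, the smallest this design can give).

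Neither Thbs3 nor Thbs4 passed between the untrained arms. Thbs3 was at 2.86, 3.02 and 3.77 FPKM (lowest, median and highest) in the libraries labelled WT and at 2.07, 2.77 and 3.42 FPKM in the untrained libraries labelled KO. Its values overlapped, with 4 of 8 libraries labelled KO below all those labelled WT. The difference was -0.13 (95% confidence interval -0.29 to 0.04, limma adjusted p = 0.536). Thbs4, the most variable member in this cortex, was at 1.58, 3.73 and 6.0 FPKM in the libraries labelled WT and at 1.91, 2.64 and 3.83 FPKM in the untrained libraries labelled KO. The libraries labelled KO lay wholly inside the range of those labelled WT. The difference was -0.36 (95% confidence interval -0.73 to 0.02, limma adjusted p = 0.424). Neither gene passed when any 1 of the 16 libraries was left out. The intervals then reached up to 0.07 for Thbs3, with a difference of -0.08 without untrained male library 4 labelled KO. For Thbs4 they reached up to 0.09, with a difference of -0.28 without male library 3 labelled WT. At the other end, Thbs3 was at -0.16 (95% confidence interval -0.318 to -0.0014, limma adjusted p = 0.284) without untrained male library 3 labelled KO. Thbs4 was at -0.47 (95% confidence interval -0.81 to -0.13, limma adjusted p = 0.217) without female library 2 labelled WT. Among animals numbered under 1000 the values were -0.17 for Thbs3 (exact permutation test, 2-sided, p = 0.0886) and -0.43 for Thbs4 (exact permutation test, 2-sided, p = 0.0915).

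The family's total was higher on average in both arms labelled KO, and its make-up separated the labels. In the arms labelled WT, untrained KO and trained KO, the 4 members summed to 9.57 ± 1.61, 12.7 ± 1.33 and 14.9 ± 1.71 FPKM (SD, n = 8 each), and 5 of 8 untrained and 7 of 8 trained libraries labelled KO lay above every library labelled WT. Thbs3 and Thbs4 together made up 66.2% to 80.6% of that sum in the libraries labelled WT, and, with the KO label, 38.9% to 49.0% in untrained and 35.9% to 52.1% in trained libraries, so the shares did not overlap by label. Thbs1 alone went from 5.39% of the sum in the libraries labelled WT to 28.8% in untrained and 31.2% in trained libraries labelled KO. As sums in FPKM, Thbs3 and Thbs4 came to 7.03 ± 1.58, 5.50 ± 0.923 and 6.99 ± 1.42 FPKM (SD, n = 8 each) in the arms labelled WT, untrained KO and trained KO. These 3 ranges overlapped. Sums and shares over the members are given as a description, without a test.

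**Figure D2:**
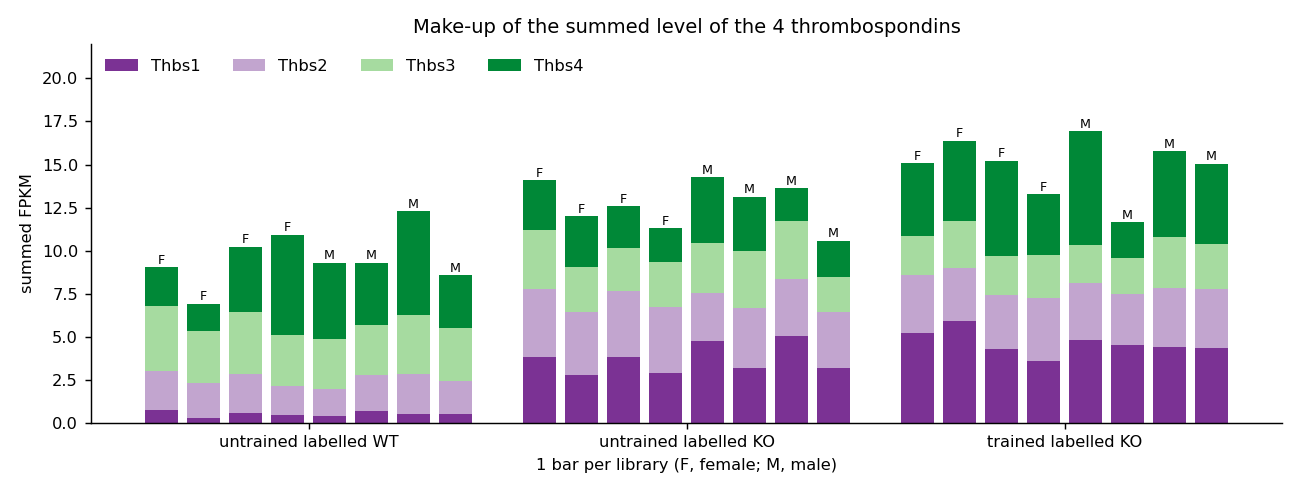
Summed FPKM of the 4 thrombospondins, 1 stacked bar per library, grouped by arm and marked F for female and M for male. The Thbs1 part is small in every library labelled WT and large in every library labelled KO, and the height of the Thbs4 part varies most between animals of an arm.

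The order of the members within a library differed accordingly. Among the libraries labelled WT, 6 had the order Thbs4, Thbs3, Thbs2, Thbs1 from highest to lowest and the other 2 had Thbs3, Thbs2, Thbs4, Thbs1. Thbs1 was therefore the lowest member in all 8. In the arm means, Thbs3 at 3.20 ± 0.351 FPKM (SD, n = 8) and Thbs4 at 3.83 ± 1.57 FPKM (SD, n = 8) differed by less than the spread of Thbs4, while Thbs2 at 2.02 ± 0.294 FPKM (SD, n = 8) lay below Thbs3 in every library. In the untrained libraries labelled KO, Thbs2 was the highest member in 5 and Thbs1 in 3. Their means, 3.51 ± 0.378 FPKM for Thbs2 and 3.68 ± 0.840 FPKM for Thbs1 (SD, n = 8 each), differed by less than their spread, as did those of Thbs3 and Thbs4, 2.86 ± 0.477 and 2.64 ± 0.674 FPKM (SD, n = 8 each). In the trained libraries, Thbs4 was the highest member in 4, Thbs1 in 3 and Thbs2 in 1. Cartilage oligomeric matrix protein, encoded by Comp and the fifth thrombospondin, was too low to be tested, at means of 0.190, 0.194 and 0.232 FPKM in the arms labelled WT, untrained KO and trained KO.

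The second comparison asked what differed with training among animals labelled KO, and Thbs4 was the only member that passed. It was at 1.91, 2.64 and 3.83 FPKM in the untrained libraries and at 2.10, 4.69 and 6.59 FPKM in the trained ones (lowest, median and highest). The arms overlapped, with 6 of 8 trained libraries above every untrained one and trained male library 2 down at 2.10 FPKM. Thbs4 rose by 0.59 (SE 0.154, 95% confidence interval 0.26 to 0.91, limma adjusted p = 0.0355), and its trained mean was 1.72 times the untrained one. In this comparison 5.67% of all tested genes passed, and 3.5% of all tested passed as higher. The call was near the threshold. It ended when any 1 of 9 libraries was left out, with changes of 0.51 to 0.61 and limma adjusted p = 0.0549 to 0.0694 (trained female libraries 1, 2 and 3, trained male libraries 1 and 3, untrained female libraries 1, 3 and 4, and untrained male library 4). With animal number as a covariate, as 1000 or more against under 1000, the change was 0.21 (limma adjusted p = 0.799). Only 2 untrained libraries labelled KO had numbers of 1000 or more, so that fit rests largely on them. Among the 6 males numbered 1000 or more, 4 trained and 2 untrained, the change was 0.25 (exact permutation test, 2-sided, p = 0.6, where this design can go no lower than 0.0667).

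Markers of oligodendrocytes, the cells that make myelin, moved with Thbs4. The 6 markers on the list for this cell type, Mbp and Mog among them, summed to 985 to 1646 FPKM in the trained libraries, 660 to 1220 FPKM in the untrained ones with the KO label and 935 to 1489 FPKM in those labelled WT. The 660 FPKM was that of untrained male library 3 labelled KO, and the next lowest library of its arm was at 1065 FPKM. None of the 6 markers was at 0 in any library. Between trained and untrained libraries labelled KO, 0 of the 6 passed in limma (2 at an unadjusted p under 0.05), and their median change was 0.23 against 0.01 over all tested genes. Across the 24 libraries, with the mean of each arm and sex removed, Thbs4 correlated with all 6 at over 0.5, with 0.627 for Mbp and 0.666 for Mog (Pearson r, a description). Their median r was 0.658, or 0.684 without untrained male library 3 labelled KO. Over all 12570 genes compared, the median r with Thbs4 was -0.02, and 278 genes were over 0.5. With the mean log2 level of the 6 markers as a covariate, a setting chosen after seeing the data, the Thbs4 change with training was 0.36 (95% confidence interval 0.07 to 0.65, limma adjusted p = 0.168). Over all 12572 genes, 225 passed with training under that covariate, against 713 without it. The Thbs4 difference by genotype label was -0.21 in the same kind of fit (limma adjusted p = 0.638). Bulk RNA cannot tell more cells of a type from more RNA per cell.

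**Figure D3:**
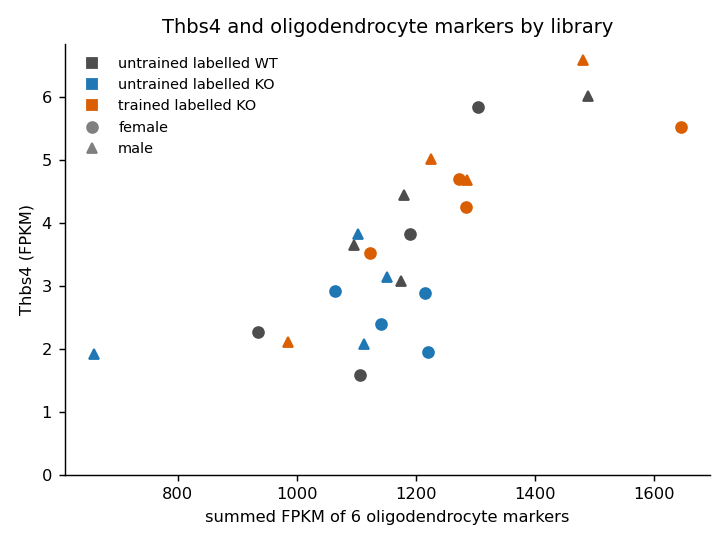
Thbs4 level (FPKM, from 0) against the summed FPKM of 6 oligodendrocyte markers, 1 point per library, coloured by arm, with circles for females and triangles for males. The trained library with the lowest marker sum had the lowest Thbs4 level of its arm (2.10 FPKM), while the untrained library labelled KO with the highest sum (1220 FPKM) had the second lowest (1.95 FPKM).

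The other 3 members did not pass with training. The Thbs1 change was 0.28 (95% confidence interval 0.06 to 0.49, limma adjusted p = 0.111), with 2 of 8 trained libraries above every untrained one. Without untrained male library 3 labelled KO, whose Thbs1 level was the highest of its arm, the change was 0.33 and passed (limma adjusted p = 0.0427). The Thbs2 change was -0.07 (95% confidence interval -0.18 to 0.04, limma adjusted p = 0.455). With animal number as a covariate that value was 0.01, on the other side of 0. The Thbs3 change was -0.16 (95% confidence interval -0.33 to 0.01, limma adjusted p = 0.234), and trained libraries at 2.08, 2.38 and 2.95 FPKM (lowest, median and highest) lay wholly within the untrained range.

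In the third comparison, trained animals labelled KO against untrained animals labelled WT, Thbs1 and Thbs2 rose and Thbs3 fell. This pair of arms differs in the genotype label, in training and, for all but 1 animal labelled WT, in animal number, and it shares its libraries with the comparisons above. The rise was 1.89 for Thbs1 (SE 0.0796, limma adjusted p = 1.03e-11) and 0.51 for Thbs2 (SE 0.0628, limma adjusted p = 4.01e-05). Neither overlapped between the arms, as in 1.65% of tested genes in that direction. In limma-voom on the recovered reads the Thbs1 difference was 3.19, past the threshold. With animal number as a covariate the Thbs2 difference was 0.77. Only 1 library labelled WT, male library 1, had a number of 1000 or more, so that fit rests largely on it. Its Thbs2 level, 1.52 FPKM, was the lowest of its arm. Thbs3 fell by 0.29 (SE 0.0633, 95% confidence interval -0.42 to -0.15, limma adjusted p = 0.00387). Of the 8 trained libraries, 7 had less Thbs3 than any library labelled WT, and the remaining one was at 2.95 FPKM. The Thbs4 difference was 0.23 (95% confidence interval -0.18 to 0.64, limma adjusted p = 0.406). In this comparison 24.5% of tested genes passed, of all tested 12.9% as higher and 11.5% as lower in the trained libraries, so a call is common here. With animal number as a covariate the Thbs3 difference was -0.21 and did not pass, in the same fit that rests largely on 1 library labelled WT.

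**Figure D4:**
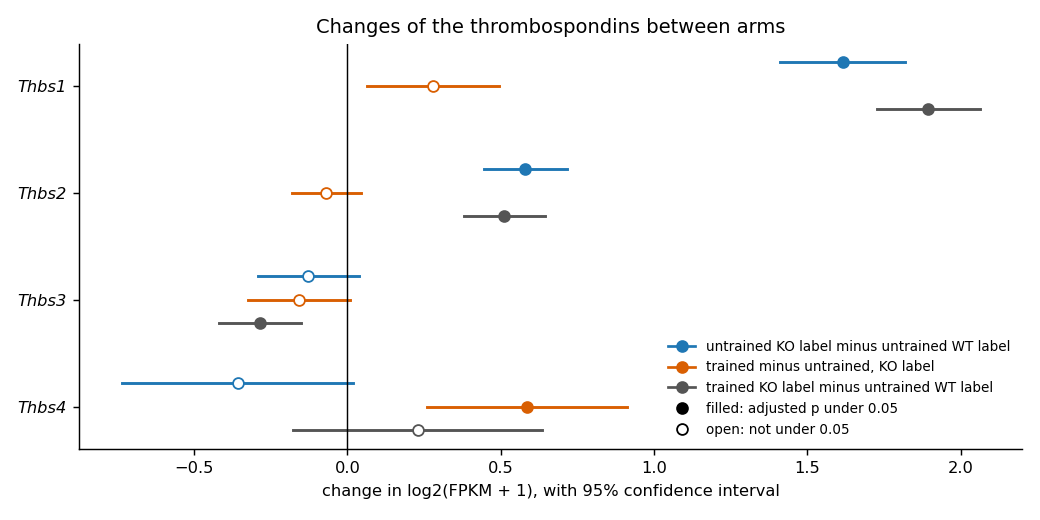
Change of each thrombospondin in the 3 comparisons of arms, as a difference in log2(FPKM + 1) with its 95% confidence interval, from limma with sex as a covariate. Filled points passed at an adjusted p under 0.05: Thbs1 and Thbs2 by label in both comparisons with the arm labelled WT, Thbs3 in the comparison of trained libraries with those labelled WT, and Thbs4 with training.

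No member differed between the sexes past the threshold, in a comparison where 28.6% of tested genes passed. The male minus female differences over the 24 libraries were 0.07 for Thbs1, -0.08 for Thbs2, -0.02 for Thbs3 and 0.12 for Thbs4, with limma adjusted p = 0.540, 0.205, 0.838 and 0.565. The 95% confidence interval was widest for Thbs4, at -0.18 to 0.43. No member passed for a genotype label effect or a training effect that differed between the sexes, and the smallest limma adjusted p among these 8 tests was 0.366, for Thbs2 with training. In those interactions 0% and 0.00795% of tested genes passed, the latter being 1 gene. Without untrained male library 3 labelled KO 194 genes passed for the training interaction, and for the members its smallest limma adjusted p was then 0.314.

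How the members varied together was examined within each arm, over 8 libraries and 6 pairs of members. No relation of the 18 passed after adjustment for either coefficient, and the count at an unadjusted p under 0.05 was also 0. The smallest p was for Thbs2 and Thbs3 in the libraries labelled WT (Pearson r = 0.687, exact permutation p = 0.0562, adjusted p = 0.734, and Spearman rho = 0.667, exact permutation p = 0.0831, adjusted p = 0.992). Without the 2 libraries farthest from the median Thbs2 level, r was 0.754, and in the 7 animals numbered under 1000 it was 0.689. The same pair had r = 0.126 in the untrained libraries labelled KO, or 0.254 without male library 3 and -0.38 without the 2 farthest, and 0.408 in the trained ones. Thbs1 and Thbs2, the pair named in the KO label, had r = 0.434 in the libraries labelled WT, -0.517 in the untrained and -0.565 in the trained libraries labelled KO (exact permutation p = 0.286, 0.192 and 0.143, adjusted p = 0.734 each). Without the 2 libraries farthest from the median Thbs1 level, r was 0.338 in the untrained and 0.0794 in the trained libraries labelled KO. With the sexes' means removed, r was -0.306 in the untrained libraries, and -0.24 without the 2 then farthest. In the trained ones it was -0.575, and 0.105 without the 2 farthest. With 8 libraries in an arm, only strong relations could pass.

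Likeness across all 24 libraries, with the mean of each arm and sex removed, is given as Pearson r with no test. The 24 points share 6 fitted means, depth, and any mixture of neighbouring tissue. The nearest members were Thbs2 and Thbs3, with r = 0.43, which placed Thbs3 at rank 313 of 12570 genes for Thbs2. Thbs1 and Thbs3 had r = 0.379, or 0.289 without untrained male library 3 labelled KO. Thbs1 and Thbs2 had r = -0.05, and Thbs4 had 0.113 with Thbs1, -0.12 with Thbs2 and 0.195 with Thbs3, or 0.222, -0.11 and 0.289 without that library. No member was among the 3 genes most like another.

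The genes most like each member differed from member to member. For Thbs1 they were Lbr (r = 0.737), the lamin B receptor of the nuclear envelope, Tfdp1 (0.728), the partner of E2F transcription factors, and 1500015O10Rik (0.727). For Thbs2 they were Adamts16 (r = 0.845), a secreted metalloprotease with thrombospondin type 1 repeats, Slc22a8 (0.758), an organic anion transporter, and Ddx58 (0.748), the RNA sensor RIG-I. For Thbs3 they were Dzip1 (r = 0.778), a cilium protein, Pcdhb8 (0.750), a clustered protocadherin, and Mro (0.749). For Thbs4 they were Map4k4 (r = 0.80), a kinase, Acvrl1 (0.794), a receptor of the TGF-beta family, and Prr18 (0.790).

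Lists of cell type markers also differed in their likeness to the members. Astrocyte markers, 10 genes, had median r of -0.16 with Thbs1, 0.0669 with Thbs2, -0.05 with Thbs3 and -0.12 with Thbs4, and 0 of 10 were over 0.5 for any member. The 5 tested fibroblast and meninges markers had a median r of 0.442 with Thbs2, from 0.132 (Lum) to 0.668 (Col1a1), with Slc6a13 at 0.523. With Thbs1 their median r was 0.336, from 0.0974 (Col1a1) to 0.599 (Col1a2). Over all genes the medians were -0.04 for both. The fibroblast and meninges markers (6 listed, Col3a1 among them not tested) summed to 9.13 to 19.5 FPKM in the libraries labelled WT, 8.27 to 22 FPKM with the KO label untrained and 11.5 to 19.3 FPKM trained, and none was at 0 in any library. With their mean log2 level as a covariate, a setting chosen after seeing the data, the genotype label difference was 1.56 for Thbs1 and 0.54 for Thbs2, both past the threshold (limma adjusted p = 5.31e-08 and 0.000149). Septal neuron markers had the highest median r of any list with Thbs1, at 0.485, or 0.404 without untrained male library 3 labelled KO. Of their 4 tested genes 2 were over 0.5 (Dgkg at 0.557 and Zic1 at 0.501). Trpc4 was at 0.468, while Mybpc1 went the other way, at -0.467. The trained library with the highest Thbs1 level, female library 2 at 5.91 FPKM, also had the highest septal marker sum of its arm, at 41.2 FPKM. Striatal neuron markers had a median r of 0.483 with Thbs4, or 0.692 without untrained male library 3 labelled KO, and of 0.45 with Thbs1. They summed to 52.0 to 223 FPKM in the libraries labelled WT, 54.0 to 335 FPKM with the KO label untrained and 47.3 to 163 FPKM trained, and their part in the values of either gene was not tested.

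**Figure D5:**
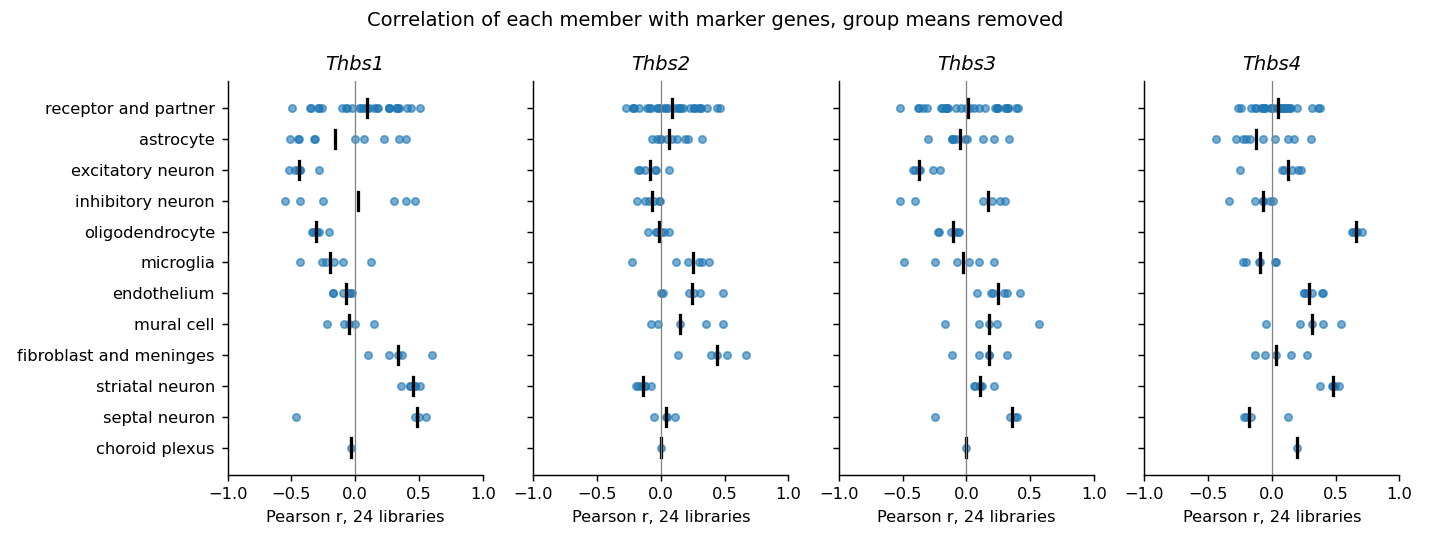
Pearson r of each thrombospondin with each gene of 12 lists over 24 libraries, with the mean of each arm and sex removed, and black bars at the median of a list. Thbs4 lies near the 6 oligodendrocyte markers and apart from the astrocyte list, and Thbs2 is nearest to the fibroblast and meninges list.

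Of 32 receptors, ligands, matrix proteases and other partners of thrombospondins on a list, 28 could be tested. Between the untrained arms 0 of 28 passed in limma (3 at an unadjusted p under 0.05), against 1.42% of all genes, with a median change of 0.04 (over all genes -0.00139). With training 2 rose and 3 fell, against 5.67% of all genes passing, with a median change of -0.07. These 5 calls ended with animal number as a covariate, where 0 of the 12572 genes passed (1306 at an unadjusted p under 0.05 in limma). Calr, which encodes calreticulin, a chaperone that also binds thrombospondin 1 at the cell surface, rose by 0.40 (limma adjusted p = 0.000528), from 136 ± 8.59 to 179 ± 11 FPKM (SD, n = 8 each). Adamts1, a protease with thrombospondin type 1 repeats, rose by 0.37 (limma adjusted p = 0.0261). Nlgn1, the postsynaptic adhesion protein neuroligin 1, fell by 0.27 (limma adjusted p = 0.00850). Lrp1, a receptor that takes up thrombospondins, fell by 0.24 and Cd47, a receptor of their C-terminal domain, by 0.21 (limma adjusted p = 0.0456 and 0.0491). Cacna2d1 encodes the calcium channel subunit alpha2delta-1, a neuronal receptor of thrombospondins in synapse formation. Its mean level was 39.6 ± 3.32, 35.8 ± 6.30 and 32.9 ± 2.51 FPKM (SD, n = 8 each) in the arms labelled WT, untrained KO and trained KO. It did not pass by genotype label (-0.16, limma adjusted p = 0.279) or with training (-0.10, limma adjusted p = 0.466), and it fell by 0.26 in trained libraries labelled KO against those labelled WT (limma adjusted p = 0.00229). In that comparison 1 of the 28 rose and 6 fell, a share near the 24.5% of all genes that passed. Cd36, a receptor of the type 1 repeats, was too low to be tested, at means of 0.0672 to 0.0779 FPKM.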

How the data were processed

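Poly(A) RNA libraries were made with a stranded kit, per the labels' protocols. The submitters' processing notes name FastQC 0.11.7, Trimmomatic 0.38, STAR 2.5.3a, featureCounts, Subread 1.6.3 and the mm10 build. The authors deposited FPKM for 15232 genes. Their gene filter and annotation are not given in the sources used here. Since a gene's FPKM values step by the worth of 1 read, reads could be recovered for 15229 genes, with 99.99% of values within 0.01 read of a whole number. Across libraries, the worth of 1 read varied inversely with the median-ratio factor. The CV of their product was 0.597%, against 1.81% with total reads in place of that factor. Molecular identifiers are not described, so reads cover counting error only. Loci and sequences come from GENCODE M21 (GRCm38, the assembly of mm10).

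Values were set to log2(FPKM + 1) and fitted by limma 3.58.1 (R 4.3.3, trend = TRUE) with a sex term, for the 12572 genes averaging an FPKM of 1 or more. P-values were adjusted over those genes (Benjamini-Hochberg, threshold 0.05). The sex effect came from a fit of all 24 libraries that also held arm. Each library carries its own animal number in the labels. As a covariate that number was split at 1000, not used as a continuous value. Limma-voom on recovered reads called 762 genes for training, against 713. Exact permutation tests went through every assignment in Python 3.11.15 with numpy 2.4.6, and scipy 1.17.1 gave the ranks for Spearman rho. Relations between members were adjusted over 18.

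The members, lists and tests were chosen with earlier results of these data known. The genes named are the members, the 3 genes most like each by Pearson r, partner genes past the threshold by genotype label or with training, and Cacna2d1, Cd47, Lrp1, Cd36 and Comp. Mtx1 is named for its overlap with Thbs3. Mbp, Mog and the named fibroblast and meninges markers and septal neuron markers were picked after their values were seen. Sums over the members are scores over genes chosen with results known, so the permutation test planned and run for them is not reported. Alternatives to these fits changed the pseudocount (0.1), the filter (none, or an FPKM of 5, with the members kept although all average less), the scaling (median-ratio, or an equal FPKM sum), the libraries (all arms together, or each left out) and the covariates (no sex, replicate block, animal number). A GC content and length correction used 20 bins (96.4% of genes had values). Marker covariates, sex without arm, and alternatives for interactions and arm means were chosen after seeing the data.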

Additional observations from a re-analysis of the deposited data

Results flagged for a closer look

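In each arm, and in the females and males of each arm, the 4 members, their sum and the sum of Thbs3 and Thbs4 were searched for a value far from the rest. Of 54 such searches 1 found a value, where chance gives about 2.7. Untrained female library 1 labelled KO had Thbs3 at 3.42 FPKM, against 2.54 to 2.66 FPKM in the other 3 females of its arm.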

How the results depend on the processing

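The differences of Thbs1 and Thbs2 by genotype label, and between trained libraries labelled KO and those labelled WT, kept their direction and stayed past the threshold in every alternative run. Across the 16 fits that each left out 1 library they were 1.56 to 1.65 and 0.54 to 0.61 by genotype label. In the third comparison, the fit with animal number rests largely on 1 library labelled WT. Of 919 comparisons of a result with an alternative, 878 kept direction and side of the threshold, or stayed within the spread. Counts of genes were held to a set fold instead. The count of relations between members past the threshold was labelled as kept without a comparison, and was 0 in each alternative. Median-ratio scaling was close to no change, since the deposited values already followed it. The 878 include results that did not pass and stayed so, also in males numbered 1000 or more, where the exact permutation test could not pass.

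The training change of Thbs4 no longer passed at 0.58 with the replicate block (limma adjusted p = 0.157), 0.36 with the oligodendrocyte covariate and 0.21 with animal number as a covariate. In males numbered 1000 or more the change was 0.25, but the exact permutation test there could not go below p = 0.0667. The Thbs4 change was 0.51 to 0.71 across the fits that left out 1 library. Training changes across those fits were 0.23 to 0.33 for Thbs1. Thbs2 with training turned to 0.00580 with animal number as a covariate and to 0.0403 in males numbered 1000 or more. Thbs3 in trained libraries against those labelled WT was -0.21, not past the threshold, with animal number as a covariate. That fit rests largely on 1 library labelled WT. The sex difference of Thbs3 was -0.0402 to 0.0119 with 1 library left out. Its uncalled difference in training effect between the sexes turned to 0.0573 after the GC content and length correction and to 0.0367 without untrained male library 3 labelled KO. Thbs3 and Thbs4 in the libraries labelled WT had r = 0.0704 with the sexes' means removed, against -0.09. The cause of these changes was not tested.

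Over all genes, 98 passed by genotype label with no sex covariate and 115 to 340 with 1 library left out (115 without WT female library 3 and 340 without untrained male library 3 labelled KO). For training, 1238 passed with all 24 libraries in one fit, 422 with no sex covariate, 225 with the oligodendrocyte covariate, 0 with animal number (1306 at an unadjusted p under 0.05) and 330 to 945 with 1 library left out. With animal number 22 passed in the third comparison. After the GC content and length correction 747 passed for sex. An equal FPKM sum gave 235 higher and 385 lower for training, against 440 and 273, and 1095 and 2112 in the third comparison, against 1626 and 1448, and 972 and 2600 for sex, against 1857 and 1738.

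Replicate numbers name different animals. Deviations of same-numbered libraries correlated on average by 0.0247 for genotype label, -0.07 for training and -0.10 in the third comparison, so the numbers do not pair the libraries. With the replicate block 114 genes passed by genotype label, 29 for training and 1614 in the third comparison, and among the members only the Thbs4 call with training ended. Depth limits Thbs1 most in the libraries labelled WT, where it rested on 21 to 71 reads.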
